A study of Mus musculus with 4 samples.

Results

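C1q is the recognition protein of the classical complement pathway, and it is built from 3 chains encoded by *C1qa*, *C1qb* and *C1qc*. These 3 genes, taken by symbol from the 31053 genes listed in the files, were followed across all cell classes of the hippocampus. They were measured in whole hippocampi of male C57BL/6 mice, 12 weeks old by the sample labels, on the seventh day after sham surgery or after two-vessel occlusion (2VO), in which both common carotid arteries are clamped for a time and blood flow to the forebrain falls. Single-cell RNA-seq was made with 1 library per mouse from 2 sham mice and 2 2VO mice. The results rest on both sham libraries and on 2VO 1, since the counts of 2VO 2 were not analysed here. None of the mice is described as carrying a transgene. Any difference that belongs to 2VO 1 as a single library or mouse therefore cannot be told apart from an effect of 2VO.

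As background, C1q binds antibodies, dying cells and synapses, and together with the proteases C1r and C1s it starts the cascade that cleaves C4, C2 and C3. Most C1q of the brain is made by microglia, and C1q on synapses is known to take part in their removal by these cells. Each C1q molecule holds equal numbers of the A, B and C chains.

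The 3 genes lie side by side on the minus strand of chromosome 4 (GRCm38, GENCODE vM21), within 18675 bases. *C1qb* (ENSMUSG00000036905) runs from 136880129 to 136886187, *C1qc* (ENSMUSG00000036896) from 136889804 to 136893065 and *C1qa* (ENSMUSG00000036887) from 136895917 to 136898803. Each has 1 annotated coding transcript, of 3 exons, and 0 other annotated genes overlap any of them. The upstream sequences of *C1qb* and *C1qc* are shown because the chains moved together across cell classes. RefSeq (GRCm38.p6) gives the 250 bases before the start of *C1qb* at chr4:136886201-136886450 and of *C1qc* at chr4:136892915-136893164, both on the minus strand. RefSeq starts *C1qc* further downstream than GENCODE does, so that 151 of its 250 bases lie inside the gene as given above, against 0 for *C1qb*. *C1qa* is named only. Capitals mark GAGGAA, the core that the myeloid factor PU.1 binds, searched on both strands (its reverse complement is TTCCTC).
C1qb: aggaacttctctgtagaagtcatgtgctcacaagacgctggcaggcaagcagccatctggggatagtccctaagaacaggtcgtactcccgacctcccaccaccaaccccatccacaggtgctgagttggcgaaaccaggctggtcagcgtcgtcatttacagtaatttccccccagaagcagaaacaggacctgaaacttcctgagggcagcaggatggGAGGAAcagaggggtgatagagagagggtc
C1qc: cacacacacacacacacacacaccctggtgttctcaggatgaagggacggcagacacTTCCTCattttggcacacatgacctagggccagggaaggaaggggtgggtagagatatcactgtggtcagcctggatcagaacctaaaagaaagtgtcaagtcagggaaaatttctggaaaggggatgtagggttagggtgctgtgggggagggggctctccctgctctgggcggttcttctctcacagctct
Each of these 2 sequences held the motif 1 time, in the gene's own direction for *C1qb* and in the opposite direction for *C1qc*. Of the 32851 promoter entries, 23.3% hold it at least 1 time in the same 250 bases, so that a match describes the letters only.

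The libraries differed in depth. Cells with at least 650 genes numbered 5109 in sham 1, 5126 in sham 2 and 3912 in 2VO 1, with medians of 8191, 5249 and 2311 UMIs (unique molecular identifiers, 1 per captured transcript). Between 25 and 28 barcode sequences of a library also occurred in another. Microglia made up 4.21%, 3.96% and 9.79% of the kept cells. The other classes were oligodendrocytes (OLGs), their precursors (OPCs), endothelial cells (ECs), pericytes (PERs), smooth muscle cells of vessels (VSMCs), fibroblast-like vascular and leptomeningeal cells (VLMCs), choroid plexus epithelial cells (CPECs), ependymal cells (EPNs), astrocytes (ASTs), neural progenitors (NPCs) and glutamatergic neurons (GLUTNs). Clusters with markers of several classes were left unnamed (159, 224 and 39 cells) and count among the cells outside the immune classes. Each level is a gene's UMIs as a share of all UMIs of the same cells, scaled to a total of 1000000 (CPM), and values stand in the order sham 1, sham 2 and 2VO 1. The chemistry counts 1 tag at the 3′ end of a transcript, so that levels do not scale with transcript length. The share of a chain is still a share of captured tags and not of protein chains.

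In microglia the chains were among the most abundant transcripts. *C1qa*, the A chain, had 7432 CPM in sham 1, 7946 in sham 2 and 5172 in 2VO 1. *C1qb*, the B chain, had 6941, 7427 and 5713 CPM. *C1qc*, the C chain, had 5440, 5598 and 3202 CPM. All 3 chains were thus lowest in 2VO 1, and the sham libraries lay close to each other. By number of UMIs, *C1qa* ranked 6 in microglia of both sham libraries and 15 in 2VO 1, *C1qb* ranked 7, 7 and 12, and *C1qc* ranked 11, 11 and 22. Microglia with at least 1 *C1qa* UMI made up 98.6%, 96.6% and 94.8% of the class.

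None of the 3 differences passed the test in microglia, where 1.72% of the 9848 genes tested were called lower. A call needed both a fold above 1.5 and an adjusted p below 0.05. Shares of all genes called belong to the main analysis unless stated otherwise. They were not computed for the scaling, filter and clustering alternatives given here and below. The log2 fold change of 2VO 1 against sham, from edgeR's quasi-likelihood test on summed counts with Benjamini-Hochberg adjustment, was −0.78 (standard error 0.22, adjusted p = 0.086) for *C1qa*. It was −0.54 (0.22, adjusted p = 0.18) for *C1qb* and −0.99 (0.22, adjusted p = 0.0502) for *C1qc*. *C1qc* was called when doublets were removed (adjusted p = 0.025), when the chains were kept for clustering (0.043) or with no filter on low counts (6.4e-05, where *C1qa* and *C1qb* were called as well), and its adjusted p ran from 0.063 to 0.63 under the other alternatives. With 2 libraries against 1 the fit had 1 residual degree of freedom, and the spread came from the sham mice alone.

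Other microglial transcripts were lower as well. Of 20 such genes compared, 7 were called lower in microglia of 2VO 1 and 0 higher, beside 1.72% and 2.97% of all genes. All 20 had a negative fitted log2 fold change, with a median of −0.96 against −0.00 over all genes tested. Among those called were *P2ry12*, the purine receptor of resting microglia (−1.95, adjusted p = 0.013 by edgeR), and *Cx3cr1*, the fractalkine receptor (−1.15, adjusted p = 0.036). The 3 chains lay between −0.54 and −0.99. Without the subclusters described next, 1 of the 20 was called lower, beside 0.326% of all genes, and the median was −0.41.

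Brain macrophages, a small class of 19, 23 and 43 cells, carried the chains at a like level. *C1qa* had 7177, 7811 and 3837 CPM, *C1qb* had 5859, 7240 and 4333, and *C1qc* had 4900, 5935 and 2344. The 2VO 1 library was again the lowest for each chain. The log2 fold changes were −0.95 (standard error 0.65) for *C1qa*, −0.58 (0.64) for *C1qb* and −1.19 (0.65) for *C1qc*, with adjusted p from edgeR of 0.48, 0.69 and 0.34, and 0.807% of all genes were called lower.

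**Figure D1:**
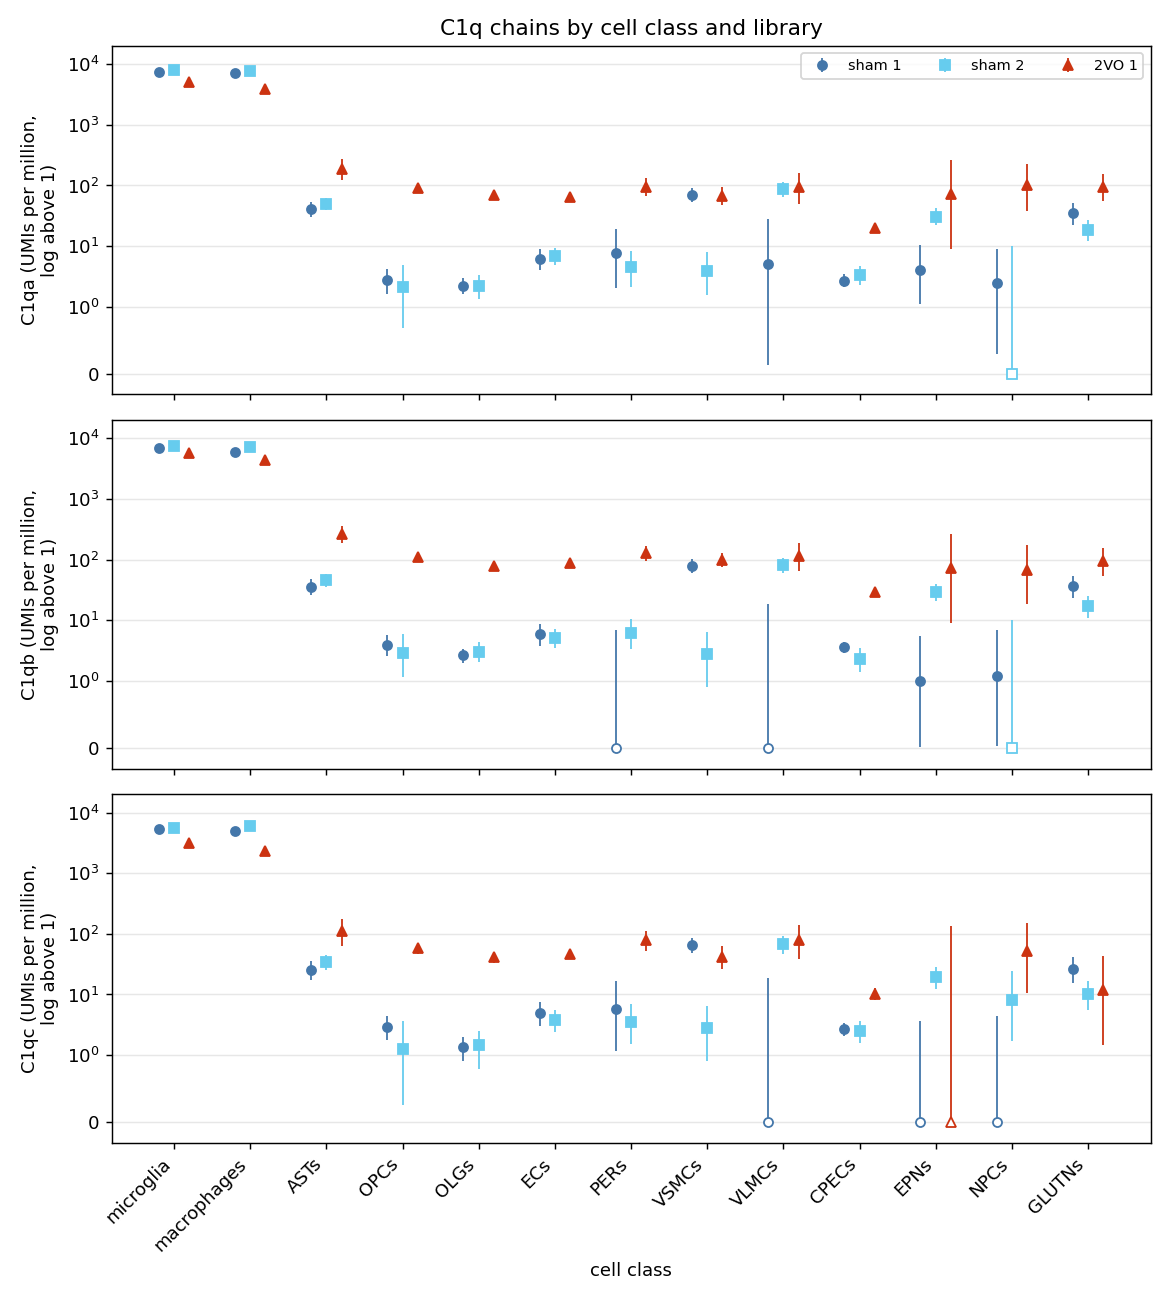
Level of *C1qa*, *C1qb* and *C1qc* (vertical axes, CPM, linear from 0 to 1 and logarithmic above 1) in 13 cell classes (horizontal axis), with 1 symbol per library. Bars are exact 95% Poisson intervals for counting error only and open symbols are counts of 0. Microglia and macrophages lie above 2000 CPM for each chain in every library, and no other class reaches 300 CPM.

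The microglia class of 2VO 1 held more cells that carry transcripts of other cell types. When the immune cells were clustered again, 42.3% of the 383 microglia of 2VO 1 fell in subclusters led by genes of ECs, OLGs, OPCs or T cells, against 8.84% of 215 in sham 1 and 6.90% of 203 in sham 2. The chains were low in these subclusters. In subcluster 3, led by EC genes, the 3 chains together had 14456 CPM in sham 1, 12029 in sham 2 and 7320 in 2VO 1. In subcluster 6, led by OLG genes, they had 6747, 2127 and 6046 CPM, with only 2 cells from sham 2.

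Without these cells and the few microglia of the macrophage subcluster (2, 3 and 0 cells), a choice made after seeing the data, 194, 186 and 221 microglia remained. In them *C1qa* had 8398, 8427 and 7665 CPM. *C1qb* had 7879, 7859 and 8404 CPM, so that 2VO 1 lay above both sham libraries. *C1qc* had 6168, 5914 and 4825 CPM and stayed below both. The log2 fold changes there were −0.19 (standard error 0.25), 0.04 (0.25) and −0.38 (0.26), with adjusted p from edgeR of 0.73, 0.96 and 0.48, and 0.326% of genes were called lower. The fitted direction of *C1qb* turned with these subclusters left out, and 5 of 14 abundant transcripts of other cell types were still called higher there, beside 1.34% of all genes. Whether the other-type transcripts account for the lower level in the whole class was not tested.

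The remaining subclusters did not differ alike between libraries in the sum of the 3 chains. Subcluster 0 had 24185 CPM of the 3 chains in sham 1, 21927 in sham 2 and 15308 in 2VO 1. Subcluster 2, in which *Cst7* and *Apoe* led and 116 of 127 cells came from 2VO 1, had 22873, 21681 and 22763 CPM, and its sham values rest on 8 and 3 cells. Subcluster 5, with *Il1a*, *Tnf* and *Ccl3*, had 22618, 22289 and 21509 CPM. Subcluster 7 had 22927, 19438 and 24883 CPM, from 9, 19 and 18 cells. Subcluster 1 had 21523, 22604 and 20010 CPM, the last from 6 cells. The T or NK cells of subcluster 9, which should lack the chains, held 1 C1q UMI in 3 cells of sham 2 and 1 in 6 cells of 2VO 1, too few for a level.

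**Figure D2:**
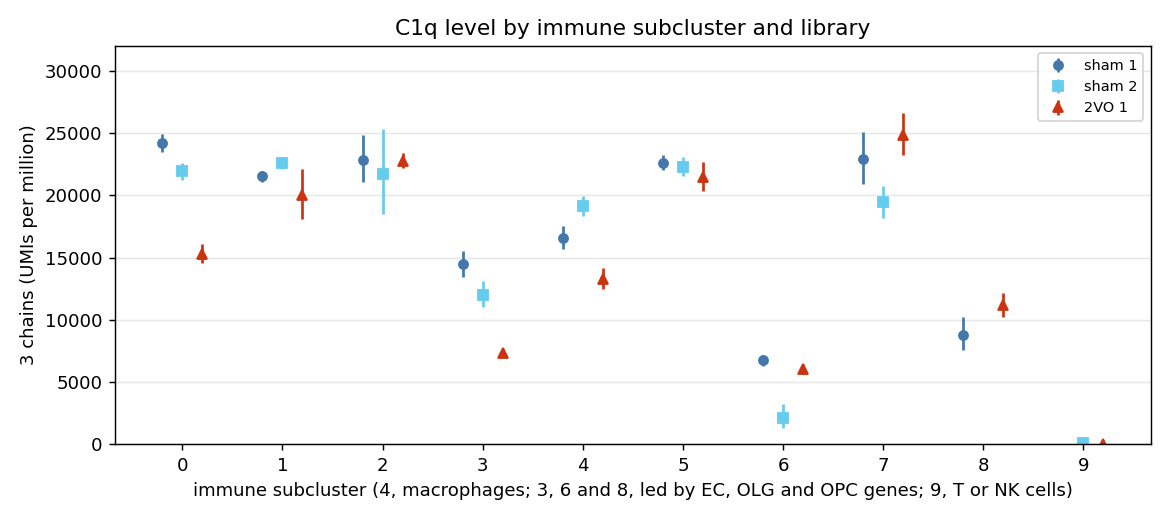
Summed level of the 3 chains (vertical axis, CPM) in 10 immune subclusters (horizontal axis), with 1 symbol per library and exact 95% Poisson intervals for counting error. Subclusters 3, 6 and 8, led by genes of other cell types, do not exceed 14456 CPM in any library that has cells there.

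The proportions of the chains differed between 2VO 1 and both sham libraries. In microglia *C1qa* took 37.5%, 37.9% and 36.7% of the C1q UMIs. *C1qb* took 35.0%, 35.4% and 40.6%, with an exact 95% interval from 39.8% to 41.4% in the immune classes of 2VO 1. *C1qc* took 27.5%, 26.7% and 22.7%. The A chain thus kept nearly the same share while the B chain stood higher and the C chain lower in 2VO 1. With 2 libraries against 1, no permutation test can reach a p of 0.05, and these shares are a description with intervals for counting error only.

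The same order was seen in the other groups of cells. The *C1qc* share was 27.5%, 26.6% and 23.1% in the microglia left after removal of the other-type subclusters. In macrophages it was 27.3%, 28.3% and 22.3%. Outside the immune classes it was 27.2%, 25.6% and 21.1%, and the *C1qb* share there was 38.3%, 35.7% and 44.9%. Of the 7 immune subclusters with at least 100 C1q UMIs in each library, the *C1qc* share of 2VO 1 was below both sham libraries in 5 and the *C1qb* share above both in 3. Subcluster 1 was among the exceptions, with *C1qc* shares of 27.5%, 26.8% and 27.3%. Sham 1 and sham 2 had like shares in microglia at different median depths, but both were deeper than 2VO 1. Subcluster 7 was shallow in each library, with medians of 1901, 1668 and 1719 UMIs. Its *C1qb* shares were 39.3%, 40.6% and 40.3%, and its *C1qc* shares 25.1%, 25.2% and 22.6%. The part of depth in the values of 2VO 1 was not tested.

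**Figure D3:**
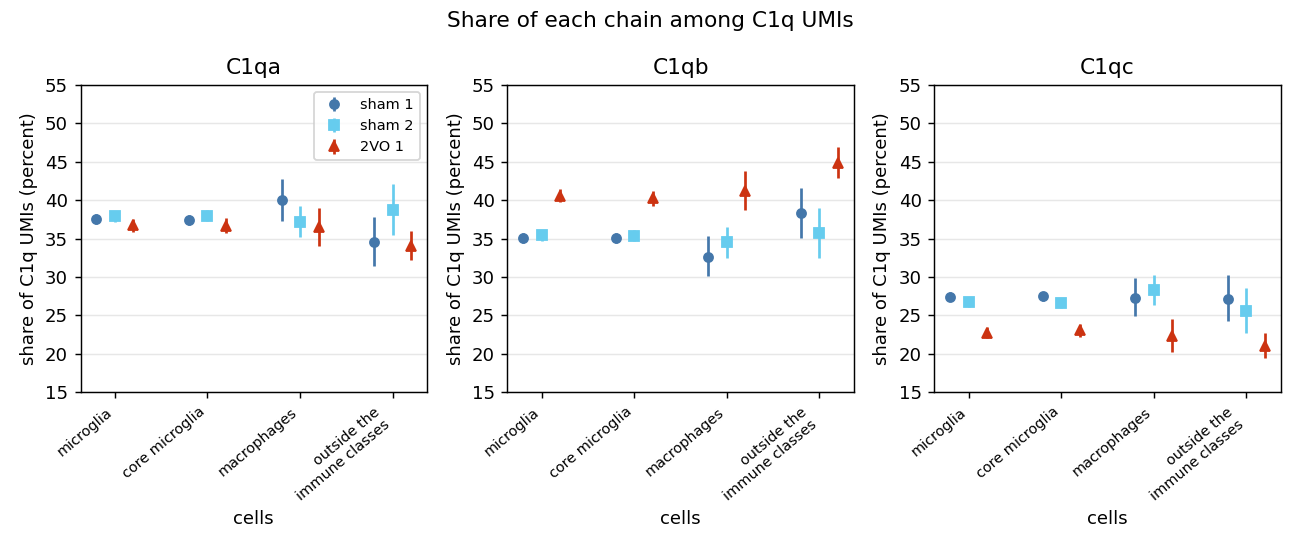
Share of each chain among all C1q UMIs (vertical axes, percent, drawn from 15 to 55) in microglia, the microglia left after removal of subclusters led by other cell types, macrophages and all cells outside the immune classes (horizontal axes), with exact 95% Clopper-Pearson intervals. The *C1qc* share of 2VO 1 lies between 21.1% and 23.1%, below both sham libraries in all 4 groups of cells.

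The chains varied together over single microglia. After every cell was thinned to 1000 UMIs, the rank correlation of *C1qa* with *C1qb* over cells was 0.59 in sham 1, 0.57 in sham 2 and 0.73 in 2VO 1. That of *C1qb* with *C1qc* was 0.48, 0.53 and 0.73. These values are descriptions over the cells of 1 library, which share its depth and composition.

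Outside the immune classes C1q UMIs were more frequent in 2VO 1. Cells outside microglia and macrophages held 883, 872 and 2453 of them, which was 3.71%, 4.07% and 14.7% of all C1q UMIs in kept cells. *C1qb* was higher in 2VO 1 than in both sham libraries in 11 of 11 classes, *C1qa* in 10 and *C1qc* in 8. VSMCs were the exception for *C1qa*, and EPNs, GLUTNs and VSMCs for *C1qc*.

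In OPCs, the precursors of oligodendrocytes, *C1qb* had 3.86, 2.92 and 112 CPM (log2 fold change 4.70, standard error 0.30, adjusted p = 1.3e-06 by edgeR). *C1qa* had 2.72, 2.09 and 89.3 CPM (4.87, 0.33, adjusted p = 1.8e-06), and *C1qc* had 2.86, 1.25 and 58.7 CPM (4.36, 0.41, adjusted p = 5.9e-05). All 3 chains were called, beside 11.7% of all genes called higher in OPCs. With barcodes from 200 genes the adjusted p of each was 0.099. The OPCs of the libraries sat in different clusters, since cluster 13 held 385 of the 489 of 2VO 1 and 48 and 38 of sham, while cluster 3 held 551 of 781 and 258 of 326 in sham and 62 in 2VO 1.

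In ECs, the lining of the vessels, *C1qb* had 5.92, 5.08 and 87.7 CPM (log2 fold change 3.87, standard error 0.22, adjusted p = 2.2e-05 by edgeR). *C1qa* rose by 3.18 and *C1qc* by 3.33 on the log2 scale, and 3.09% of all genes were called higher. In CPECs, which form the choroid plexus and secrete cerebrospinal fluid, *C1qb* had 3.59, 2.28 and 28.9 CPM (2.90, 0.25, adjusted p = 8.2e-06). *C1qa* rose there by 2.44 and *C1qc* by 1.66, beside 1.95% of all genes called higher.

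In ASTs *C1qb* had 36.0, 45.3 and 267 CPM (log2 fold change 2.59, standard error 0.31, adjusted p = 0.037 by edgeR) and was the only chain called, beside 0.0471% of all genes. *C1qa* had 40.6, 50.3 and 185 CPM (adjusted p = 0.14) and *C1qc* had 25.3, 34.0 and 110 CPM (adjusted p = 0.17). Few ASTs held most of these UMIs, with 118 of 133 in 1 cell of sham 1, 176 of 206 in 3 cells of sham 2 and 58 of 82 in 2 of the 39 cells of 2VO 1. Without cells of 10 or more C1q UMIs, an alternative chosen after seeing the data, the log2 fold change of *C1qb* in ASTs was larger and no longer called (3.84, standard error 0.71, adjusted p = 0.088). With doublets removed *C1qa* (3.30, adjusted p = 0.0085) and *C1qb* (3.86, adjusted p = 0.00092) were called, and at clustering resolution 2.0 no chain was (adjusted p = 0.34).

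In OLGs, the myelin-forming cells, all 3 chains differed by more than in ECs and were not called. *C1qb* had 2.64, 3.03 and 79.5 CPM (log2 fold change 4.43, standard error 0.23, adjusted p = 0.052 by edgeR), *C1qa* had 2.21, 2.19 and 69.6 CPM, and *C1qc* had 1.37, 1.46 and 40.8 CPM. There 0% of the 12534 genes were called higher, although 4174 genes were below 0.05 before adjustment. DESeq2 called all 3 chains, as did edgeR with doublets removed (adjusted p = 0.044), at resolution 2.0 (0.026 to 0.037) or with barcodes from 200 genes (0.048). Here too the clusters differed, as cluster 4, led by *C4b*, held 633 of the 854 OLGs of 2VO 1 and 64 and 174 of sham, and cluster 0 held 762, 615 and 60. In PERs, the contractile cells of capillaries, *C1qa* had 7.57, 4.44 and 95.4 CPM with an adjusted p of 0.23, and 0% of genes were called higher. All 3 chains were called in PERs by edgeR with doublets removed (adjusted p from 3.4e-09 to 0.00023) and with no filter on low counts. The 0% of genes in OLGs and PERs belongs to the main analysis and is no background for the calls under the alternatives.

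In GLUTNs, which here include Cajal-Retzius neurons, *C1qa* had 35.1, 18.6 and 95.6 CPM and *C1qb* had 36.6, 17.2 and 95.6 CPM. The log2 fold changes were 1.68 (standard error 0.53) and 1.69 (0.54), with adjusted p from edgeR of 0.14 for both, and 0.326% of genes were called higher. *C1qc* had 26.3, 10.04 and 11.9 CPM, from 2 UMIs in 2VO 1. The sham values rest on few cells, since 66 of the 67 C1q UMIs of sham 1 lay in 1 cell and 53 of the 64 of sham 2 in another, while no such cell was found in 2VO 1. Without cells of 10 or more C1q UMIs, *C1qb* in GLUTNs had a log2 fold change of 4.53 (adjusted p = 0.0018). Without the Cajal-Retzius neurons, also left out after seeing the data, it was 2.51 (adjusted p = 0.063). Both chains were also called with barcodes from 200 genes and at resolution 2.0.

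In VLMCs and VSMCs no chain was called, beside 1.2% and 0.391% of genes called higher, and the sham libraries lay far apart. *C1qa* had 5.10, 87.9 and 92.6 CPM in VLMCs, the first from 1 UMI, and 70.0, 3.91 and 67.6 CPM in VSMCs. A single cell held 120 of the 134 C1q UMIs of VLMCs in sham 2, and another held 150 of the 165 of VSMCs in sham 1. With doublets removed all 3 chains were called in VSMCs (log2 fold changes 3.69, 3.81 and 3.31, adjusted p = 0.0067, 0.0066 and 0.048 by edgeR), and *C1qa* in VLMCs was at 3.06 with no call (adjusted p = 0.67). In EPNs (9 cells in 2VO 1) and NPCs (at most 6 UMIs of a chain in any library) the chains were not tested in the main analysis. With no filter on low counts *C1qa* (5.15) and *C1qb* (5.36) were called in NPCs and *C1qc* (3.54) was not. With barcodes from 200 genes *C1qb* was called in NPCs (5.66). GABAergic neurons, a class named only in alternatives, had *C1qb* called there (3.65), but not *C1qa* (2.03) or *C1qc* (1.80).

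Every class of 2VO 1 held cells with C1q UMIs. At least 1 C1q UMI was found in 34.6% of OPCs, 33.8% of OLGs, 34.8% of ECs, 33.1% of PERs, 43.4% of CPECs, 43.6% of ASTs and 41.9% of GLUTNs of that library. The lowest of 11 classes was VLMCs at 18.75%. Over all cells outside the immune classes the share was 6.95% in sham 1, 3.92% in sham 2 and 35.8% in 2VO 1. After thinning to 1000 UMIs, which left out 54, 15 and 105 shallower cells, it was 1.08%, 1.43% and 19.5%. No share is read here as expression of C1q by the class.

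The UMIs were also spread over more cells. In 2VO 1, 24.3% of the cells outside the immune classes held 1 C1q UMI and 6.34% held 2, against 5.95% and 0.595% in sham 1 and 2.98% and 0.245% in sham 2. Cells with 10 or more numbered 7, 13 and 31, and they held 53.7%, 68.0% and 21.4% of these UMIs. Such cells also carried other microglial transcripts, with a median of 134, 49 and 26 UMIs from the 20 microglial genes compared. By Scrublet score 3, 3 and 4 of these cells were doublets.

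**Figure D4:**
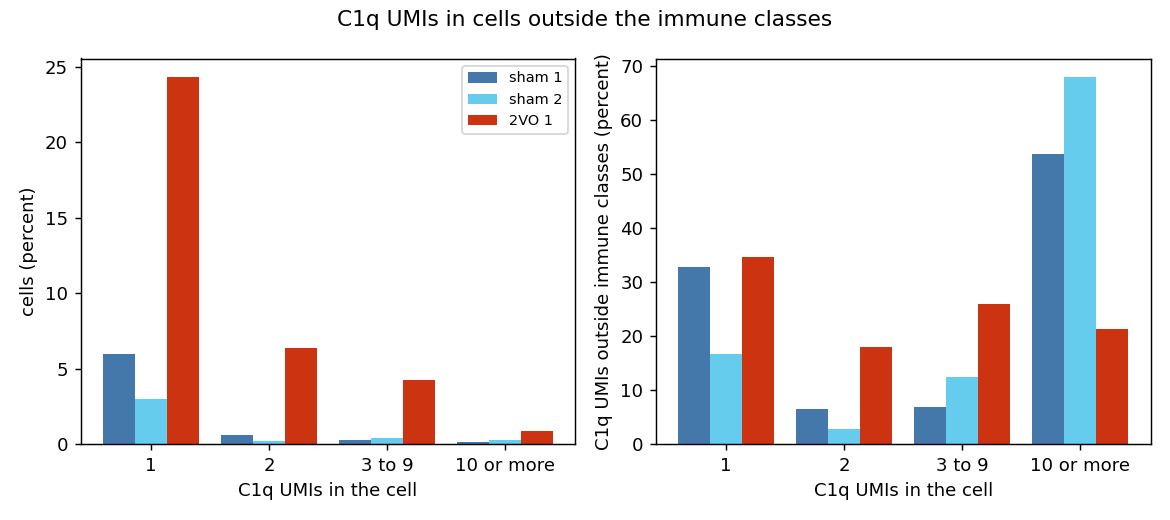
Cells outside the immune classes by the number of C1q UMIs they hold (horizontal axes), as percent of these cells (left) and as percent of the C1q UMIs found in them (right). Bars stand for the 3 libraries. In 2VO 1 24.3% of cells hold 1 UMI, and the cells with 10 or more hold 21.4% of the UMIs, against 53.7% and 68.0% in sham.

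Other microglial transcripts were found outside the immune classes to a like degree. The level outside was 0.06%, 0.11% and 0.97% of the microglial level for *C1qa*, 0.08%, 0.11% and 1.16% for *C1qb* and 0.07%, 0.10% and 0.97% for *C1qc*. Over 20 microglial transcripts the median was 0.08%, 0.13% and 1.22%. In 2VO 1, 13 of the 20 were above the highest chain and 1 was below the lowest. *Trem2*, a microglial receptor, had 1.09% in 2VO 1 and *Cx3cr1* had 0.98%. In the test of 2VO 1 against sham, 17 of 19 microglial transcripts were called higher in OPCs (11.7% of all genes), 18 of 20 in ECs (3.09%) and 11 of 19 in CPECs (1.95%). None was called of 19 in OLGs and 13 in PERs (0% of all genes in both), 18 in ASTs (0.0471%), 14 in VSMCs (0.391%), 10 in GLUTNs (0.326%) and 6 in VLMCs (1.2%). Their median log2 fold change was 4.10 in OPCs, 2.88 in ECs and 4.10 in OLGs, against 0.03, −0.01 and −0.01 over all genes.

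Transcripts of other cell types were measured in microglia in turn. Over 16 abundant transcripts of other cell types, the median level in microglia was 1.73%, 1.05% and 4.31% of the level in their own class. In microglia 6 of the 15 tested were called higher, beside 2.97% of all genes, and in macrophages 10 of 11, beside 5.13%. *Flt1*, an EC receptor for VEGF, had 85.9, 103 and 728 CPM in microglia.

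**Figure D5:**
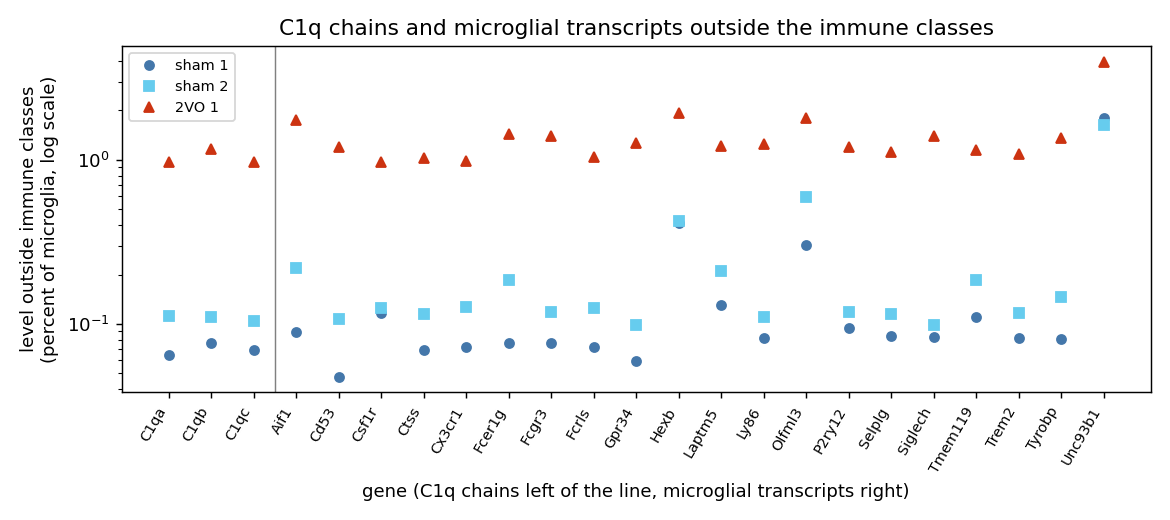
Level outside the immune classes as percent of the level in microglia (vertical axis, log scale) for the 3 C1q chains and 20 microglial transcripts (horizontal axis), with 1 symbol per library. For every gene the 2VO 1 symbol lies above both sham symbols, and the chains lie among the other genes.

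The change in a class was tested against the change in the whole microglia class, with its subclusters led by other cell types kept. The difference of log2 fold changes was 5.83 (standard error 0.65, adjusted p = 0.0054 by edgeR) for *C1qa*, 5.43 (0.63, 0.0057) for *C1qb* and 5.58 (0.66, 0.0057) for *C1qc* in OPCs, and 1.19% of genes were called higher in this test. In OLGs it was 5.55, 5.15 and 5.63, each with an adjusted p of 0.045, beside 0.421% of genes. In GLUTNs *C1qa* (2.35, adjusted p = 0.015) and *C1qb* (2.14, adjusted p = 0.035) were called and *C1qc* (0.22, adjusted p = 0.99) was not, beside 0.25% of genes. Neither was called in GLUTNs at clustering resolution 2.0 (adjusted p = 0.15 and 0.10) or with no filter on low counts (0.12 and 0.20), and *C1qa* was not with barcodes from 200 genes (0.063). In ASTs no chain was called (adjusted p from 0.099 to 0.10 by edgeR), and 0% of genes were called higher. Before adjustment 1303 genes were below 0.05, in either direction. The median over all genes was −0.26 in the tests of GLUTNs and ASTs.

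Of 17 measured genes of C1 partners and later complement steps, 1 had its highest level in microglia (*C1s2*, with a mean of 0.748 CPM), and 2 had over 100 CPM there. *C1ra*, a protease that C1q activates, had 2.74, 2.28 and 2.21 CPM in microglia and was highest in VLMCs. *Serping1*, the C1 inhibitor, was also highest in VLMCs. In microglia 3 of 7 tested genes were called higher, beside the 2.97% above, with a list median of 0.17 against −0.00 over all genes. They were *C4b*, the fourth component, with 1.83, 1.14 and 116 CPM, *Cd59a*, an inhibitor of the last step, with 7.31, 5.70 and 48.6 CPM, and *Clu*, with 16.4, 19.4 and 75.1 CPM. The adjusted p from edgeR were 0.0079, 0.030 and 0.029. Over all cells these 3 genes were highest in OLGs, CPECs and ASTs, respectively.

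Of 12 genes for C1q-binding receptors and chaperones, 5 were highest in microglia, and 0 of the 10 tested there were called in either direction (list median −0.21). *Trem2* had 2067, 2391 and 1983 CPM, *Lair1*, an inhibitory receptor, had 380, 466 and 375 CPM, and *Itgam* and *Itgb2*, the chains of complement receptor 3, had 416, 364 and 341 CPM and 132, 144 and 136 CPM. *Cd33* had 186, 195 and 192 CPM. For *Cd33* and *Itgb2* the level of 2VO 1 lay between those of the sham libraries. Of 20 further genes with a C1q domain, 0 were highest in microglia.

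Over 12 classes and 3 libraries, the genes most like the mean of the 3 chains, by Pearson correlation of log2(CPM + 1) over 36 points, were *Tyrobp* (0.99), *Aif1* (0.98), *Fcer1g* (0.98), *Fcrls* (0.98), *Ctss* (0.97), *Trem2* (0.97), *Laptm5* (0.96), *Ly86* (0.96), *Csf1r* (0.96) and *Fcgr3* (0.96), of 15446 genes compared. The chains correlated with each other at 0.97 to 0.98. The points of 1 library share its depth.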

How the data were processed

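Per the sample labels and the study's methods, 10x 3′ libraries were aligned by the authors with Cell Ranger to GRCm38 (mm10); the submitters' notes also name Seurat 3.2.2. UMI counts per gene and barcode were deposited by the authors, and whether depth was equalized is not given in the sources used here. The libraries held 65287386 (sham 1), 40459614 (sham 2) and 18754480 (2VO 1) UMIs. Barcodes with at least 650 genes were kept, and clustering used genes found in at least 20 cells. Cells were clustered (scanpy 1.11.5, 2000 variable genes without the C1q chains, 30 components, 15 neighbours, Leiden resolution 1.0) and named from fixed markers by a rule set after the clusters were seen, so that names are rebuilt and a difference from the study may come from them. Doublets (Scrublet score over 0.2) were kept and removed in an alternative.

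Counts were summed per library and class with at least 10 cells in each library and tested with edgeR 4.0.16 (TMM factors, default filter, Benjamini-Hochberg over all genes of a class), with DESeq2 1.42.0 as an alternative. The study's own test compared cells, and sums per mouse were used instead. The change in OPCs, OLGs, ASTs and GLUTNs was tested against that in microglia with an interaction term and library as a term. Since 2VO holds 1 library, p-values rest on the spread between the 2 sham mice, and 2VO 1 is assumed to vary like them. On simulated microglia (8793 genes) 91% of genes changed 4-fold and 17% of genes changed 2-fold were recovered. The interaction test, simulated for OLGs against microglia, recovered 21.5% of 200 genes changed 4-fold, so that a missing call there says little. Poisson and Clopper-Pearson intervals cover counting error only.

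Named were the chains, listed genes that the text counts, with values for those highest in microglia, and the 10 genes most correlated with the chains. Other genes of the lists given values were chosen after these were seen. Members and lists were chosen with earlier results of these data known.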

Additional observations from a re-analysis of the deposited data

Results flagged for a closer look

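The change of the chains differed between a cell class and microglia by a test of the difference itself in 3 classes. The microglia side was the whole class, and the test was not run without its subclusters led by other cell types. In OPCs the difference of log2 fold changes was 5.83 for *C1qa*, 5.43 for *C1qb* and 5.58 for *C1qc*, beside 1.19% of genes called higher. In OLGs it was 5.55 for *C1qa*, 5.15 for *C1qb* and 5.63 for *C1qc*, beside 0.421%. In GLUTNs it was 2.35 for *C1qa* and 2.14 for *C1qb*, beside 0.25%. These GLUTN calls were lost at clustering resolution 2.0 and with no filter on low counts, and the sham values of GLUTNs rest on few cells.

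Barcodes with fewer than 650 genes entered no comparison except the alternative with barcodes from 200 genes. At least 1 C1q UMI was found in 46.0% of the 1449 such barcodes of 2VO 1, above 20.1% of 819 in sham 1 and 12.3% of 1516 in sham 2. The C1q level in them was 4091 CPM in sham 1, 1576 in sham 2 and 3690 in 2VO 1, so that by level 2VO 1 lay between the sham libraries. Over all kept cells it was lower in each library, at 368, 550 and 944 CPM. In the alternative with barcodes from 200 genes, the microglia clusters held 100, 75 and 561, then 149, 131 and 17, then 94, 107 and 30 cells. The microglia clusters of the main analysis held 79, 88 and 363, then 136, 115 and 20 cells. Macrophages numbered 33, 55 and 87, against 19, 23 and 43 in the main analysis. The clusters of the alternative mix barcodes below and above 650 genes, and those below were not counted by class alone.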

How the results depend on the processing

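Of 33 pairs of chain and class tested, 10 were called, and 22 were called with no filter on low counts and 22 with doublets removed. The other scaling, filter and clustering alternatives gave 8 to 14, of which DESeq2 gave 8 among 23 pairs with an adjusted p. The share of all genes called was not computed under any of these alternatives, so that these counts have no background beside them. *C1qc* in GLUTNs turned to 1.99 with at least 200 genes per barcode and to 0.79 at resolution 2.0, and *C1qb* in microglia turned to 0.0364 without the subclusters led by other cell types or macrophages. Without 1 sham replicate (1 library against 1, no test), *C1qa* in VLMCs ran from −0.00693 to 4.15, and in VSMCs *C1qa* ran from −0.13 to 3.95 and *C1qc* from −0.73 to 3.71. The share of cells outside the immune classes with a C1q UMI moved to 0.615%, 0.878% and 11.1% when thinned to 500 UMIs and to 6.95%, 3.92% and 35.8% with no thinning, and to 1.83% in sham 2 at resolution 2.0. The cause was not tested. The *C1qa* share in microglia stayed within its counting interval under each alternative. The same check was not made for the *C1qb* and *C1qc* shares, which differed more between 2VO 1 and sham. No paired analysis was possible because only 1 replicate number has counts in both groups.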
